A study of Mus musculus with 6 samples.

Results

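Keratins 6a, 6b, 16 and 17, encoded by Krt6a, Krt6b, Krt16 and Krt17, are the keratins that epidermal keratinocytes switch on around a wound. These 4 genes were taken by name from the 30349 genes listed in the table, and all 4 were among the 11716 genes tested, those whose mean reached 1 CPM (a library's reads scaled to a common total). RNA came from primary epidermal keratinocytes of postnatal day 2 mice. Replicates 13, 14 and 15 are the 3 wild type libraries, and replicates 9, 10 and 11 the 3 of genotype p63 alphaKO. Cells of both groups were kept for 5 to 6 days, until confluent, in medium with 0.05 mM calcium, 4% chelated serum and 2.5 ng/mL EGF, a growth factor. The assay was 3' digital gene expression, which reads transcripts near their 3' ends. The labels give no strain or sex, do not say which part of Trp63 is missing in p63 alphaKO, and do not say whether libraries of a group came from separate animals. The p-values therefore measure the spread between these libraries, which may be technical.

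Keratins form filaments as pairs of a type II and a type I chain. Krt6a and Krt6b encode type II chains, which pair with the type I chains of Krt16 and Krt17. In intact skin their expression is mostly limited to hair follicles, nails and other appendages, and in the epidermis between follicles they appear after injury, in hyperproliferative disease and when keratinocytes are put into culture. Mutations in the human counterparts cause pachyonychia congenita, a disorder of thickened nails and painful palms and soles. Trp63 encodes p63, a transcription factor of stratified epithelia, and the comparison asks how keratinocytes of the p63 alphaKO genotype differ from wild type in gene expression.

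The genes lie as 2 neighbouring pairs in GRCm38 (mm10), all on the minus strand. Krt6b (chromosome 15, 101676023 to 101680287, 9 exons) and Krt6a (chromosome 15, 101689910 to 101694307, 9 exons) are 9622 bases apart, with no other protein-coding gene between them. Krt16 (chromosome 11, 100246091 to 100248902, 8 exons) and Krt17 (chromosome 11, 100256217 to 100261029, 8 exons) are 7314 bases apart, again with none between. The basal keratin genes stand beside them: Krt5 is the next protein-coding gene after Krt6a and Krt14 the one before Krt16.

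Krt6a and Krt6b are near copies, so whether their reads can be told apart bears on every value below. Their coding sequences are 97.6% identical (1625 of 1665 aligned columns), and the longest run they share without a difference is 280 bases. Its first 60 bases (34 to 93 of either coding sequence, counted from the start codon) show how alike they are.
Krt6a and Krt6b, coding bases 34 to 93: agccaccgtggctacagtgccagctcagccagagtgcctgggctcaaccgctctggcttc
The ends of the coding sequences, up to the stop codon, are shown next because they lie on the side from which the assay reads. They are still separated from the transcript end by 3′ untranslated regions of 557 bases in Krt6a and 506 bases in Krt6b. Capitals mark letters that differ from the partner or are missing in it.
Krt6a, coding bases 1591 to 1662: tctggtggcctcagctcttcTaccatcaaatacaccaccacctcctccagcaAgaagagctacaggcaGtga
Krt6b, coding bases 1591 to 1665: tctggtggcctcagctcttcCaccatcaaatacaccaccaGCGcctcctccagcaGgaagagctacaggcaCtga
Across these 75 aligned columns 69 letters were identical. The 3′ untranslated regions that follow were less alike, at 70.5% identity (395 of 560 aligned columns). Of all windows of 50 bases in the Krt6a transcript, 43.6% (972 of 2229) occurred unchanged in Krt6b, but of the 451 windows in its last 500 bases 0 did, and likewise 0 of 451 for Krt6b. The nearest shared window ended 609 bases from the 3′ end of the Krt6a transcript and 561 bases from that of Krt6b. Neither the read length nor the treatment of reads with several matches is given in the sources used here.

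The type I pair is less alike, and here most of the shared windows lie in genes other than the partner. Krt16 and Krt17 were 68.9% identical in the coding sequence, and Krt16 was closer to Krt14 (82.9%). The ends of their coding sequences, marked in the same way, differ at most positions.
Krt16, coding bases 1342 to 1410: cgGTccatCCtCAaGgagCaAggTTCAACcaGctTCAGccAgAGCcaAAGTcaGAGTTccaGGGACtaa
Krt17, coding bases 1228 to 1302: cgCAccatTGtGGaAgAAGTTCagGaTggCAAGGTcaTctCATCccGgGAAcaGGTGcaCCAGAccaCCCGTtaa
Of the 1516 windows of 50 bases in Krt16, 188 occurred in Krt14 and 382 in the gene model Gm11597, and of the 1502 in Krt17, 55 occurred in Krt14. In the last 300 bases of either transcript, 0 of 251 windows occurred in any other gene. In the last 500 bases 76 of 451 did for Krt16 and 43 of 451 for Krt17, so reads that start further from the end could have been shared. For Krt16, 70 of these windows occurred in Gm11597, which has no level in these data, and 6 in Krt14. For Krt17, all 43 occurred in Krt14, which reached 15124 CPM. Between Krt16 and Krt17 themselves, 6 windows in the last 500 bases were shared.

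The wound keratins were among the most abundant transcripts of these cultures. Krt6a ranked 2 or 3 of all genes in each library, Krt17 between 6 and 22, Krt16 between 11 and 42, and Krt6b between 90 and 156. Together they took 2.44%, 2.53% and 2.79% of all reads in wild type replicates 13, 14 and 15, and 2.67%, 1.63% and 2.01% in p63 alphaKO replicates 9, 10 and 11. On a scale of CPM per kilobase of transcript, the wild type means were 6082 for Krt6a, 4319 for Krt17, 2565 for Krt16 and 577 for Krt6b, and the p63 alphaKO means were 5074, 3075, 2458 and 374.5. Because a 3' assay reads a transcript near its end whatever its length, the levels below are in CPM without division by length. The order Krt6a, Krt17, Krt16, Krt6b was the same on both scales in each of the 6 libraries. Over the libraries the CPM ranges of the neighbours Krt17 and Krt16 overlapped (3390 to 7645 and 2307 to 5167), while Krt6a (9800 to 14106) stayed above Krt17 and Krt6b (768 to 1481) below Krt16.

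**Figure D1:**
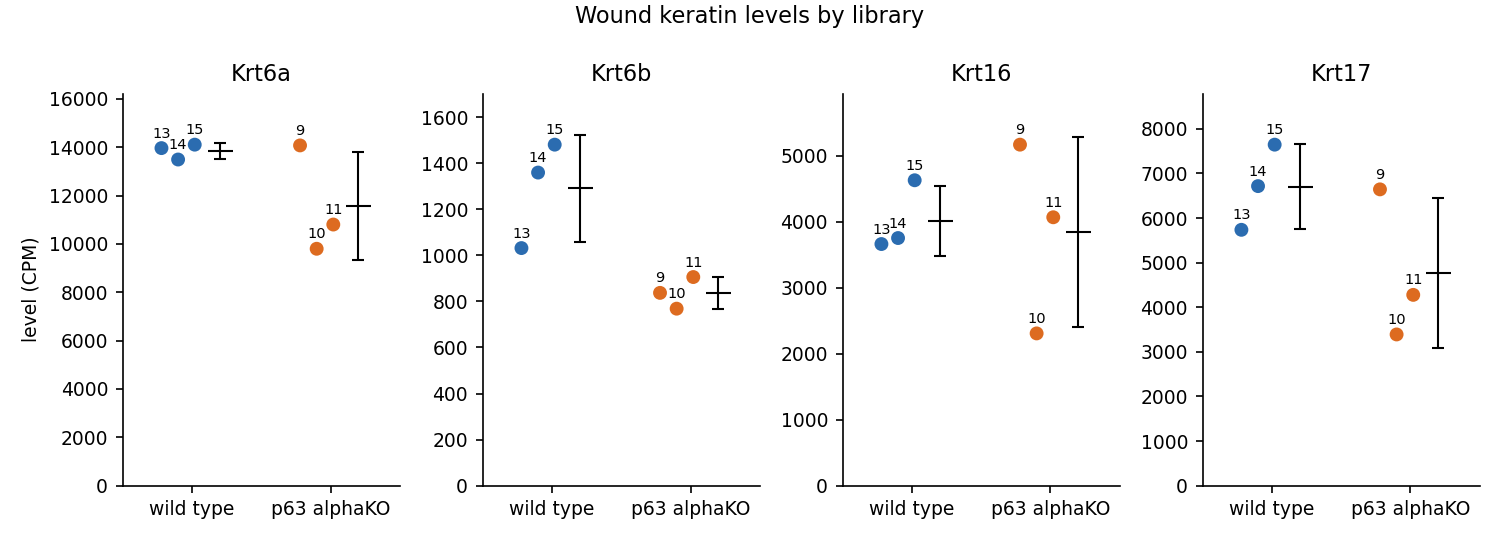
Level in CPM (y axes, each from 0) of the 4 wound keratins in wild type (blue) and p63 alphaKO (orange) libraries, labelled by replicate, with the group mean and SD (n = 3) as black bars. The groups do not overlap for Krt6b, and for Krt6a, Krt16 and Krt17 replicate 9 of p63 alphaKO lies within or above the wild type values.

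Krt6b, the minor type II wound keratin, was the member whose groups did not overlap in CPM. It was at 1032, 1359 and 1481 CPM for the wild type libraries against 837, 768 and 906 CPM for p63 alphaKO replicates 9, 10 and 11. Each p63 alphaKO library thus lay below the lowest wild type library, from 3283, 4373 and 4661 reads in wild type and 1833, 2306 and 1541 in p63 alphaKO. The means were 1290 ± 232 CPM (SD, n = 3) and 837 ± 68.6 CPM (SD, n = 3), a fitted fold of 0.655 (95% interval 0.476 to 0.901). On the log2(CPM + 1) scale the difference was -0.61 (SE 0.22), with an unadjusted p of 0.0123 and a limma adjusted p of 0.716, so it did not pass the threshold of 0.05 over all genes. Non-overlapping groups with p63 alphaKO lower were seen for 5.09% of the genes tested. As a share of all keratin reads Krt6b overlapped between groups, at 2.08%, 2.69% and 2.90% in wild type and 1.56%, 1.92% and 2.31% in p63 alphaKO. Its share of wound keratin reads and its ratio to Krt5 overlapped too.

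Krt17, a type I keratin that also marks hair follicle precursors, stood lower in 2 of the 3 p63 alphaKO libraries. It was at 5736, 6715 and 7645 CPM for the wild type libraries against 6643, 3390 and 4277 CPM for p63 alphaKO replicates 9, 10 and 11. Replicates 10 and 11 lay below every wild type library, and replicate 9 lay among them. The log2 fold change was -0.54 (SE 0.27, 95% interval -1.11 to 0.03, limma adjusted p = 0.794). It was -0.80 without p63 alphaKO replicate 9 and -0.32 without replicate 10.

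Krt6a, the major type II wound keratin, was nearly constant in wild type, at 13964, 13492 and 14106 CPM. In p63 alphaKO it was at 14075, 9800 and 10802 CPM, so again replicate 9 lay within the wild type range and the other two below it. The coefficient of variation was 2.32% over the wild type libraries and 19.3% over the p63 alphaKO libraries. The log2 fold change was -0.28 (SE 0.26, 95% interval -0.83 to 0.27, limma adjusted p = 0.926). It was -0.43 without p63 alphaKO replicate 9, -0.17 without replicate 10, and -0.06 with quantile scaling.

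Krt16, the type I keratin most closely tied to hyperproliferative epidermis, varied most between p63 alphaKO libraries. It was at 3661, 3752 and 4628 CPM for the wild type libraries against 5167, 2307 and 4067 CPM for p63 alphaKO replicates 9, 10 and 11. The highest and the lowest of the 6 values were thus both p63 alphaKO, 2.24-fold apart. The log2 fold change was -0.13 (SE 0.28, 95% interval -0.72 to 0.46, limma adjusted p = 0.987). Without p63 alphaKO replicate 10 the sign turned, to 0.20, and without replicate 9 it was -0.38.

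None of the 4 members passed the adjusted threshold by limma, nor by edgeR or DESeq2 on reads recovered from the table, where 0.0427% of the genes tested passed by limma (5 of 11716). At an unadjusted limma p under 0.05 there was 1 of 4 (Krt6b), against 6.36% of all genes. All 4 fitted changes lay below 0, as did 49.3% of all genes, with a median of -0.41 for the members against 0.01 for all genes. The intervals of Krt6a, Krt16 and Krt17 reach from a decrease larger than the fitted one of Krt6b to an increase, so a difference was not shown for them, and neither was its absence.

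Of 3 ratios within the wound keratin pool, 1 did not overlap between groups. The ratio of Krt17 to Krt16 was 1.57, 1.79 and 1.65 in wild type and 1.29, 1.47 and 1.05 in p63 alphaKO, so each p63 alphaKO library lay below each wild type library. The ratio of Krt6a to Krt6b was 13.5, 9.92 and 9.53 in wild type and 16.8, 12.8 and 11.9 in p63 alphaKO, where wild type replicate 13 lay among the p63 alphaKO values. Type II over type I wound keratins gave 1.596, 1.42 and 1.27 in wild type and 1.26, 1.86 and 1.40 in p63 alphaKO. Among single genes tested, 5.09% did not overlap with p63 alphaKO lower. As a share of wound keratin reads, every member overlapped between groups. These ratios and shares were formed after the values of single members were known and carry no test.

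Wound keratins made up about as many keratin reads as the basal pair of Krt5 and Krt14. Their share of all keratin reads was 49.2%, 50.1% and 54.5% in wild type and 49.8%, 40.6% and 51.2% in p63 alphaKO, and the basal pair held 49.9%, 48.8% and 44.0% and 49.5%, 58.6% and 48.2%. Replicate 10 of p63 alphaKO stood alone, with the lowest wound share and the highest basal share. There Krt14, the type I chain of the basal layer, was at 14239 CPM, within the range of the other 5 libraries (10394 to 15124), while Krt16 and Krt17 were at their lowest. Within type I keratins the wound share ranged from 28.5% in that library to 49.97% in wild type replicate 15. Within type II keratins it ranged only from 52.7% to 58.7%. Without p63 alphaKO replicate 10 the difference in wound share between the group means was -0.72 percentage points, against -4.02 with it.

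**Figure D2:**
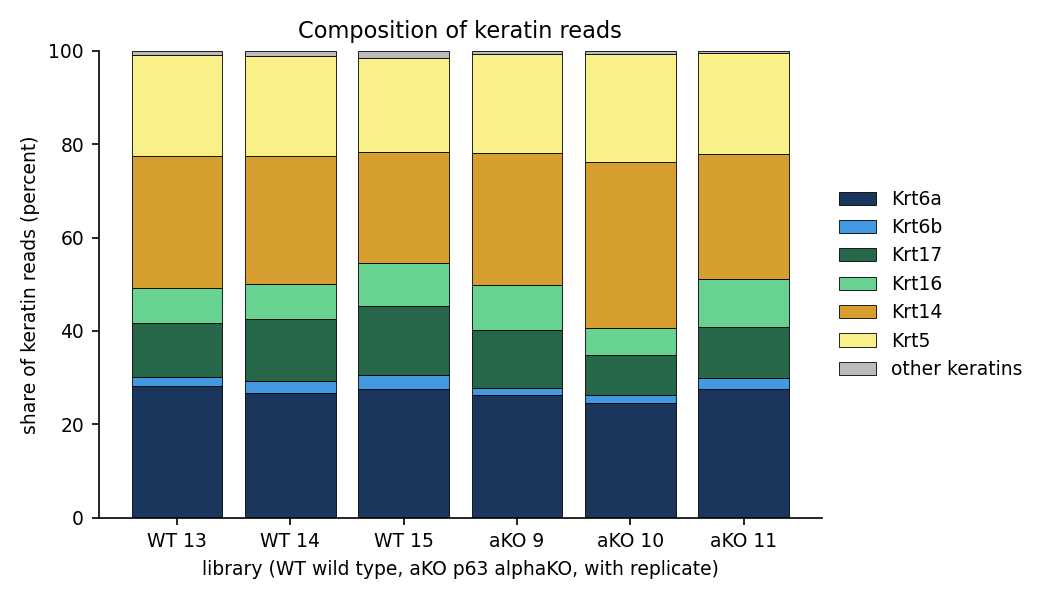
Share of all keratin reads (y axis, percent) in each library (x axis) taken by the 4 wound keratins, the basal keratins Krt14 and Krt5, and all other keratins. The wound keratins, at the foot of each bar, reach 40.6% in p63 alphaKO replicate 10 and 49.2% to 54.5% in the other 5 libraries.

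Other keratins beside the basal pair were a small part of these cultures. Of 49 other keratins listed, 17 reached a mean of 1 CPM. Apart from Krt5 and Krt14, the other keratins held 0.99%, 1.08% and 1.49% of keratin reads in wild type. In p63 alphaKO they held 0.67%, 0.72% and 0.55%, without overlap between groups, where 5.09% of single genes tested did not overlap with p63 alphaKO lower. Krt1, the type II keratin of suprabasal cells, was the 1 keratin of the 21 tested that passed the threshold (log2 fold change -2.44, SE 0.32, limma adjusted p = 0.00686). At 185, 249 and 401 CPM, Krt1 was the most abundant of these other keratins in each wild type library, against 74.4, 31.0 and 47.6 CPM in p63 alphaKO. The separation of their share therefore rests largely on Krt1. Its type I partner Krt10 (-1.60, adjusted p = 0.286) and Krt15, a type I keratin of basal and follicle stem cells (-2.02, adjusted p = 0.299), did not pass. The basal pair was at -0.14 for Krt5 (SE 0.25) and -0.03 for Krt14 (SE 0.26), with limma adjusted p of 0.983 and 0.997. Krt42, the type I gene next to Krt17, was at 11.6, 9.95 and 19.7 CPM for the wild type libraries against 15.5, 5.67 and 5.29 CPM for p63 alphaKO (-0.68, adjusted p = 0.864). Krt75, a type II keratin of the follicle's companion layer on the far side of Krt6b, did not exceed 4.33 CPM in any library.

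**Figure D3:**
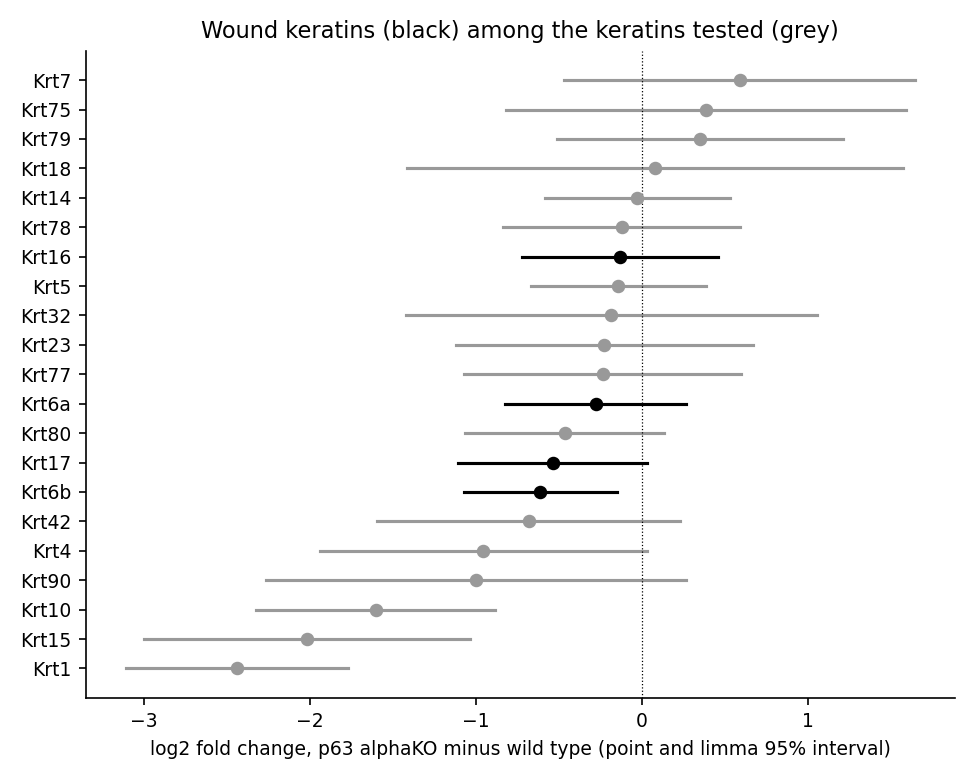
Log2 fold change, p63 alphaKO minus wild type, on the log2(CPM + 1) scale (x axis), with its 95% interval from limma, for the 21 keratins tested (y axis), wound keratins in black. The wound keratins lie between -0.61 and -0.13, and Krt1, Krt15 and Krt10 lie furthest to the left.

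Across the 6 libraries each wound keratin had some other genes nearer to it than its nearest member, which is likely where far more genes than members are compared. Likeness was the root mean square distance between log2(CPM + 1) values after each gene was centred on its own mean, over 3469 other genes whose mean reached 50 CPM. With so many genes and 6 libraries, close patterns are to be found for any gene. Nearest to Krt6a were Cdc42, a small GTPase of cell polarity (distance 0.07), and the secretory pathway genes Kdelr1 and Lman2 (0.09 each). Nearest to Krt6b were Ccnb2, which encodes cyclin B2 (0.08), the membrane protein gene Emp1 (0.12) and Ube2c, a ubiquitin-conjugating enzyme of mitosis (0.13). Ccnb2 was at 49.96, 66.8 and 83.2 CPM for the wild type libraries against 42.5, 37.0 and 41.7 CPM for p63 alphaKO. Nearest to Krt16 were Plau, the urokinase gene (0.13), Ash2l (0.16) and Sri (0.18). Plau was at 60.3, 51.9 and 68.6 CPM and at 91.8, 36.0 and 73.5 CPM, again with its highest and lowest values in p63 alphaKO replicates 9 and 10. Nearest to Krt17 were the keratinocyte surface protein gene Ly6d (0.10), Cryab, a small heat shock protein (0.12), and Stt3a (0.17). Between members the distance was smallest for Krt6a and Krt17 (0.22) and largest for Krt6b and Krt16 (0.40). Of the 3469 genes, 317 lay closer to Krt6a than its nearest member did, 181 to Krt6b, 61 to Krt16 and 9 to Krt17. Closer than the farthest member were 891, 1156, 1007 and 42, in the same order.

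**Figure D4:**
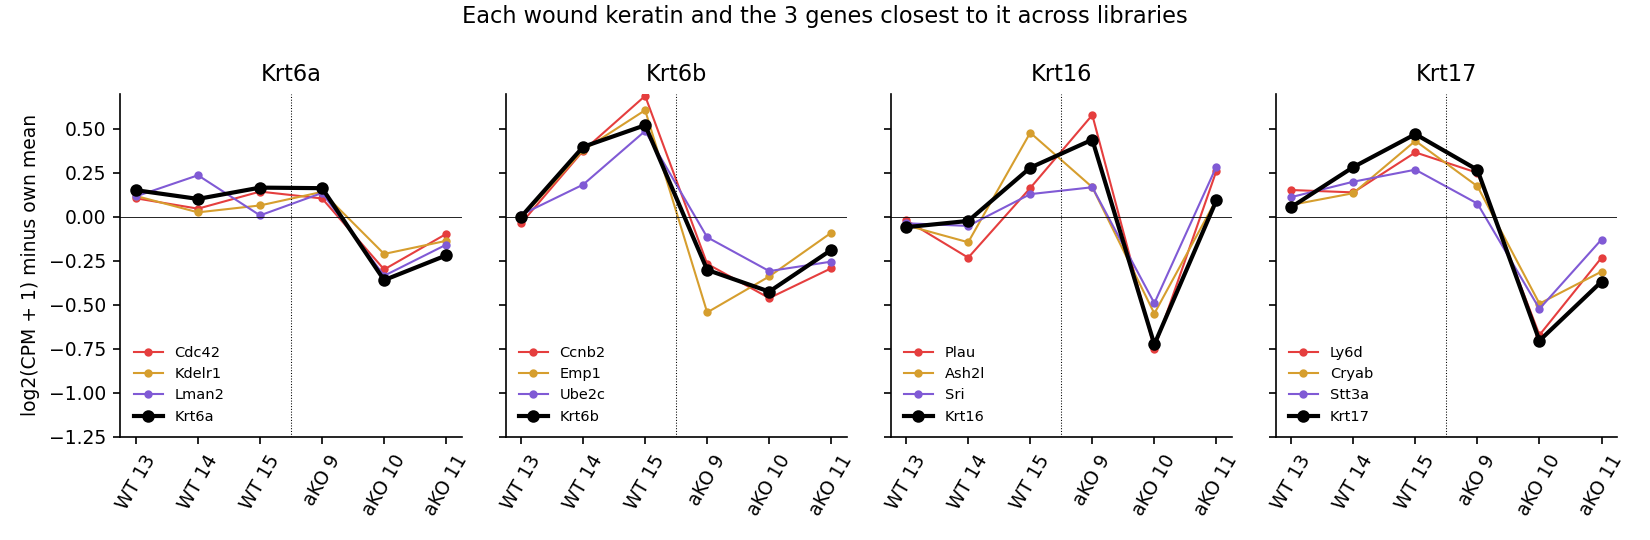
Centred log2(CPM + 1) (y axis) in each library (x axis) of each wound keratin (black) and the 3 genes nearest to it (colours); lines only join the points of a gene. Krt6b is highest in wild type replicate 15 and lowest in p63 alphaKO replicate 10, and Krt16 is highest in p63 alphaKO replicate 9 and lowest in replicate 10.

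The mitosis genes are given beside Krt6b because 2 of them, Ccnb2 and Ube2c, were among its nearest. That search used these same values, and both genes stay in the list below. The 30 listed mitosis genes had a summed level of 1865, 2082 and 3203 CPM over wild type replicates 13 to 15 against 1546, 1664 and 1413 CPM for p63 alphaKO, with no overlap between groups. The order of libraries was that of Krt6b within wild type and the reverse of it within p63 alphaKO, where replicate 10 had the highest mitosis sum and the lowest Krt6b. All 30 had a fitted change below 0 (median -0.68), against 49.3% of all genes. None passed the threshold over all genes by limma, and 13 were at an unadjusted limma p under 0.05, against 6.36% of all genes. The summed level of the 10 listed spinous layer markers, Krt1 among them, also did not overlap between groups. It was 7843, 8638 and 8236 CPM in wild type replicates 13 to 15 against 5400, 7767 and 5908 CPM for p63 alphaKO. The nearest sums were those of wild type replicate 13 and p63 alphaKO replicate 10. Krt1 alone was at 185 and 31.0 CPM there, further apart than the sums, so this separation rests on Krt1. Among single genes tested, 5.09% did not overlap with p63 alphaKO lower. The part of cell division or of spinous layer genes in the Krt6b difference was not tested.

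Genes around the wound keratins, in lists chosen by known role, showed no member past the adjusted threshold. Proteins that bind or anchor keratins, such as desmosomal and plakin linkers, had 9 of 11 fitted changes below 0, against 49.3% of all genes. Their median was -0.08. Hnrnpk, an RNA-binding protein reported to bind keratin 17, was at 378, 444 and 402 CPM for the wild type libraries against 282, 282 and 307 CPM for p63 alphaKO libraries (log2 fold change -0.49, limma adjusted p = 0.758). The others of smallest p were Jup, or plakoglobin (-0.50), the plakin Evpl (-0.29) and Vim (-0.39), all with overlapping groups. At an unadjusted limma p under 0.05 there was 1 of the 11, against 6.36% of all genes.

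Regulators reported for wound keratin genes had 15 of 21 fitted changes below 0, against 49.3% of all genes, and a median of -0.16. Cebpb, a transcription factor of differentiating keratinocytes, was at 55.3, 59.1 and 40.3 CPM for the wild type libraries against 37.0, 37.7 and 20.6 CPM for p63 alphaKO libraries (log2 fold change -0.71, limma adjusted p = 0.758), without overlap. The AP-1 genes Fosl1 (-1.02) and Jun (-0.49) and the thyroid hormone receptor gene Thra (0.49) overlapped between groups. Fosl1 was at 21.4, 31.1 and 7.31 CPM and at 12.8, 14.3 and 2.35 CPM, lowest in the last library of each group. Egfr, the receptor of the EGF in the medium, stood at -0.02 (SE 0.29). Trp63 was at 38.0, 53.2 and 48.9 CPM for the wild type libraries against 49.8, 59.3 and 57.0 CPM for p63 alphaKO (0.25, adjusted p = 0.926). A level per gene from 3' reads does not check the genotype where the missing part is not stated.

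Other genes that keratinocytes raise at a wound edge lay on both sides of 0. Of 31 tested, 18 had a fitted change above 0 and 13 below, with a median of 0.06, where 49.3% of all genes lay below. At an unadjusted limma p under 0.05 there were 5, against 6.36% of all genes. Tslp, an epithelial cytokine, was at 481, 568 and 495 CPM for the wild type libraries against 154, 288 and 390 CPM for p63 alphaKO libraries (log2 fold change -0.98, limma adjusted p = 0.488). On the other side was the protease inhibitor Slpi (1.16, limma adjusted p = 0.646), which overlapped. Mmp9, a gelatinase, was listed at 0 in wild type replicates 13 and 14, at 0.32 CPM in replicate 15, and at 4.57, 5.67 and 5.29 CPM in p63 alphaKO (adjusted p = 0.293). Hair follicle markers, given because wound keratins are normal products of the follicle, had 5 of 10 fitted changes on each side (median 0.15). Msx2, a homeobox gene, was at 9.74, 15.2 and 11.4 CPM and at 2.28, 0.67 and 4.70 CPM (-2.04, adjusted p = 0.324). Foxn1 (0.57), Hoxc13 (-0.46) and Tchh (-0.46) had adjusted p of 0.794, 0.885 and 0.885.

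**Figure D5:**
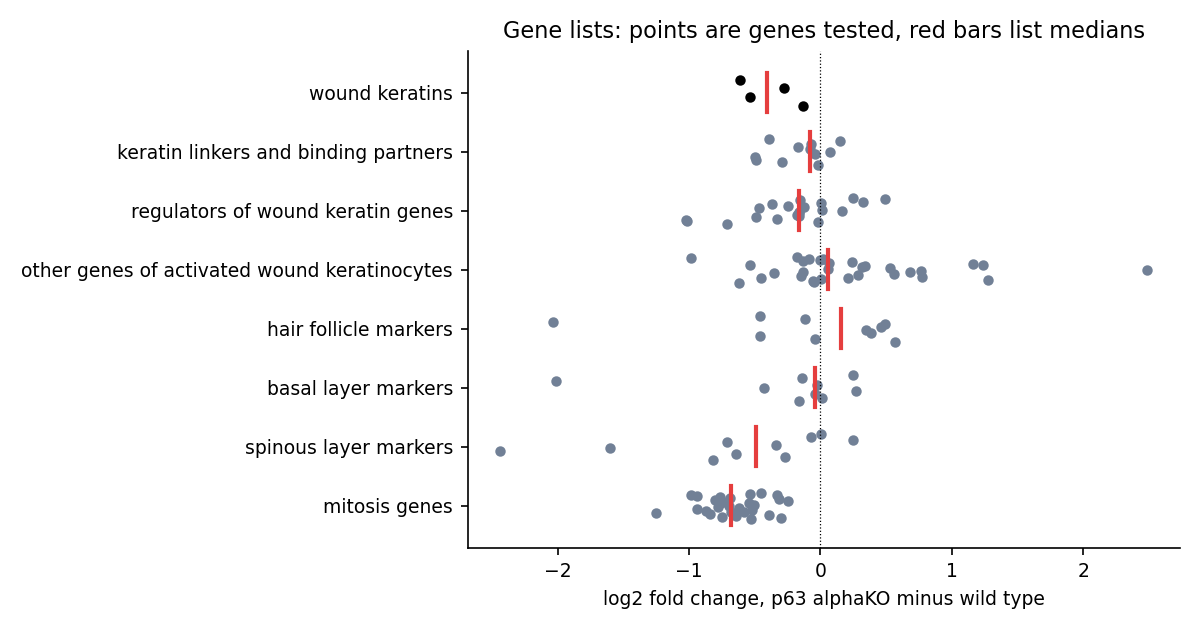
Log2 fold change, p63 alphaKO minus wild type, on the log2(CPM + 1) scale (x axis) of the tested genes of 8 lists (y axis), 1 point a gene, red bars at the medians. All 4 wound keratins and all 30 mitosis genes lie below 0, as do 49.3% of all genes tested. The other genes of activated wound keratinocytes lie on both sides.

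The libraries held 1699716 to 3215333 reads, so counting error on the members was small beside the spread between libraries. On the first principal component of the tested genes (33.2% of the variance) wild type replicate 15 and p63 alphaKO replicate 11 stood at 13.55 and 61.15, and the other 4 at -26.9 to -8.74. Without both, the log2 fold changes were -0.22 for Krt6a, -0.56 for Krt6b, -0.10 for Krt16 and -0.39 for Krt17. The 9 basal markers summed to 20637 to 29301 CPM over the libraries, with Krt14 and Krt5 the most abundant. Among markers of other cells, melanocyte genes (12) summed to 350 to 912 CPM in wild type and 259 to 1151 CPM in p63 alphaKO, highest in replicate 10, where Krt6a, Krt6b, Krt16 and Krt17 were lowest. The melanocyte sum was lowest in p63 alphaKO replicate 11. There the summed wound keratins, at 20052 CPM, also lay below every wild type library. Muscle genes (10, 2 of them at 0 in all libraries) summed to 48.7 to 663 CPM in wild type and 3.19 to 55.8 CPM in p63 alphaKO. All 7 tested had a fitted change below 0, against 49.3% of all genes. In wild type the muscle sum was highest in replicate 15, where the wound keratins were highest of that group. In p63 alphaKO it was lowest in replicate 9, where the summed wound keratins were highest of that group, at 26722 CPM. Fibroblast genes (10) reached 49.96 CPM, and immune and Langerhans cell genes (12, 7 of them at 0 in all libraries) 17.5 CPM. The part of other cells in the wound keratin values was not tested. In bulk RNA, fewer cells of a type and less RNA per cell cannot be told apart.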

How the data were processed

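The deposited table holds CPM for 6 libraries, with 2 decimals and 1 column per library, per the file headers. Per the submitters' processing notes, STAR, HTSeq and mm10 were used; the sources used here state no versions, options or molecular identifiers. Divided by the worth of 1 read in that library, 100% of values above 0 came out whole (tolerance 0.1), which gave back the reads. PCR copies may be among them.

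Genes whose mean reached 1 CPM were tested with limma 3.58.1 (R 4.3.3) on log2(CPM + 1) with a mean-variance trend, two-sided, with Benjamini-Hochberg adjustment over all 11716 genes and a threshold of 0.05. SE is the moderated standard error, and intervals are at 95%. edgeR 4.0.16 and DESeq2 1.42.0 were run on the recovered reads. The scripts were tried on simulated data. The members and the 18 gene lists were chosen with earlier results of these data known. Of 251 listed symbols, 5 were not found under these names. Named were the members, keratins reaching that mean, the 4 genes of smallest p in each list of related genes (none but Krt1 passed), and the 3 nearest genes per member. One gene that this rule names is not reported here. Egfr and Trp63 were added after their values were seen. Sequences and coordinates are from GENCODE vM21 (GRCm38). The groups share no replicate numbers.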

Additional observations from a re-analysis of the deposited data

How the results depend on the processing

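Under 18 alternatives to the fit, the log2 fold changes of Krt6a (-0.43 to -0.06), Krt6b (-0.76 to -0.50) and Krt17 (-0.80 to -0.32) stayed below 0 and did not pass the threshold (adjusted p 0.760 to 1.00, 0.206 to 0.999 and 0.619 to 0.999). Krt16 ranged from -0.38 to 0.20, the latter without p63 alphaKO replicate 10 (adjusted p 0.889 to 1.00). The alternative added after seeing the data, CPM recomputed without Gm42418, the gene with the most reads, changed no direction or call of the members. The number of genes past the threshold, 5, was 2 with a pseudocount of 0.5, 3 with 5, 1 without a filter, 2 at a minimum mean of 5 CPM, 0 in limma without the trend (827 at an unadjusted p under 0.05), 2 by edgeR, 15 by DESeq2, 48 without wild type replicate 15 and p63 alphaKO replicate 11 together, and 2 to 13 when 1 library was left out. With 1 library left out, the group difference (p63 alphaKO minus wild type) in the summed level of the 4 genes, -4844 CPM, ranged from -7698 CPM without p63 alphaKO replicate 9 to -2470 CPM without replicate 10. That in the wound share of keratin reads, -4.02 percentage points, ranged from -6.02 without p63 alphaKO replicate 11 to -0.72 without replicate 10, and was -2.39 without wild type replicate 15. That in the ratio of Krt6a to Krt6b, 2.83, ranged from 1.34 without p63 alphaKO replicate 9 to 4.10 without wild type replicate 13. No paired analysis was possible because the groups share no replicate numbers. Genes at 3 reads or fewer in a library, below 0.93 to 1.76 CPM, are at the limit of this depth, and the wound keratins are far above it.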
